A study of Mus musculus with 2 samples.

Results

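Colony-stimulating factors are the secreted proteins that keep macrophages and granulocytes alive and direct their growth, and 6 genes of this system were followed here in peritoneal macrophages, macrophages taken from the abdominal cavity. The genes are the ligand gene Csf1 and the receptor genes Csf1r, Csf2ra, Csf2rb, Csf2rb2 and Csf3r. They were chosen by name: every non-control probe of the array whose gene name was 1 of these 6 was taken, which gave 6 of 37008 gene names and 12 of 56605 probes. All 12 are reported, and all 12 read well above background on both arrays, by the mark of the scanner software, with no outlier mark.

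The cells came from wild-type (WT) mice and from MeXis null mice, which lack the long noncoding RNA gene MeXis, both given as bl6 strain. All cells were in DMEM with serum and antibiotics, and no further treatment is named in the labels. Each genotype was 1 pool of 3 samples on 1 one-colour Agilent array, so there was no replicate and no test of the genotype, and every difference is between these 2 arrays. The labels do not say how the macrophages were obtained, how MeXis was removed, or the age of the mice. The 1 MeXis probe read 12.3 in WT and 8.44 in MeXis null, not well above background on either array, so it does not check the labels.

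CSF1 (macrophage CSF) acts through the receptor tyrosine kinase CSF1R, which also binds interleukin-34, and tissue macrophages depend on this signal. GM-CSF acts through an alpha chain, CSF2RA, that binds the ligand and a beta chain, CSF2RB, that carries the signal and is shared with the interleukin-3 and interleukin-5 receptors. Mice have a second beta chain, CSF2RB2, which serves interleukin-3 alone. G-CSF acts through CSF3R, best known from neutrophils.

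Signals are processed intensities on a linear scale, each with the error that the scanner software gives. Differences are log2 values, MeXis null minus WT, after each array was set to the 75th percentile of its probes well above background. A probe was called higher or lower when it was at least 1.5-fold apart and beyond the 95% limit of its scanner error. A stricter yardstick came from 285 probes printed several times on each array: the difference varied among spots of one probe with a median SD of 0.47, so a single spot was taken to be uncertain by 0.91. That spread followed position on the array. Each difference was therefore also taken relative to the median over the 100 nearest bright spots (the local surface correction), which lowered the SD to 0.33 and the limit to 0.64. The corrected value is given for the member probes the results turn on, and for other genes where the correction ends a call or moves the value by much.

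Csf1 read higher on the MeXis null array with all 3 of its probes, and the 5 receptor genes read lower or about level, apart from 2 probes just above 0. By the call rule 2 of the 12 probes were higher, both of Csf1, and 4 were lower, 1 of Csf1r, 2 of Csf2rb and the 1 of Csf3r. Over all 22732 probes measured on both arrays, 19.0% were called higher and 14.0% lower, 33.0% in all. Beyond the 0.91 limit were the 2 higher Csf1 probes and none of the lower ones, where 9.51% of all probes lay above that limit and 5.91% below its negative. This rested on the scaling. Under quantile, loess and spike-in scaling 2 lower probes, 1 of Csf1r and 1 of Csf2rb, also passed the limit. Under median and all-probe scaling only that of Csf1r did. In these scalings 6.77% to 8.01% of all probes lay below the negative limit. With the local surface correction 3 member probes lay above 0.64 and 4 below its negative, against 10.4% and 10.8% of all probes. The lower count also depended on the correction: with the 30 nearest spots 3 lay above that setting's limit and 1, Csf3r, below its negative, and normexp with the local correction gave 2 and 2. The probes are not independent of each other, since several read the same transcript. In these pooled samples fewer cells of a type and less RNA per cell cannot be told apart.

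**Figure D1:**
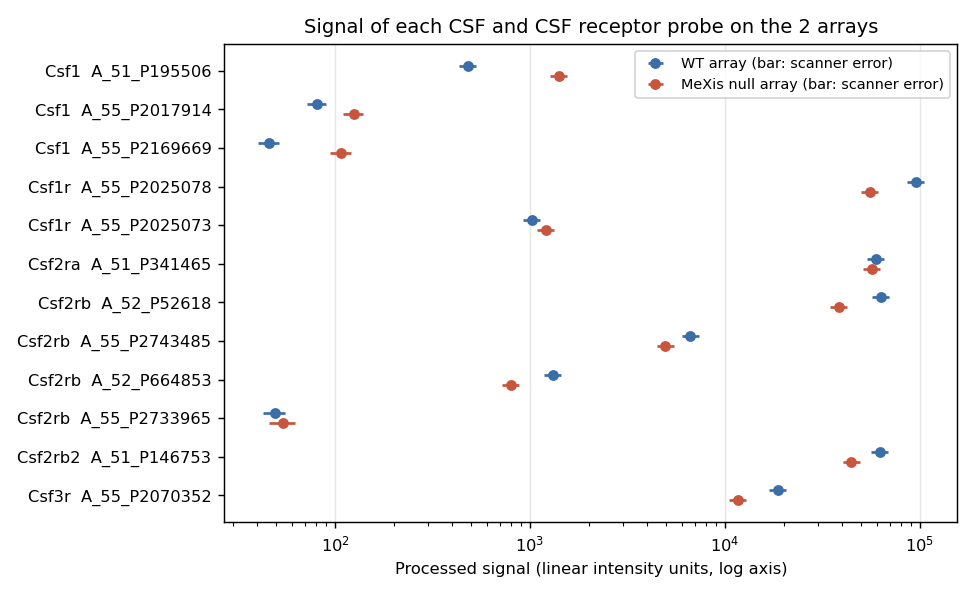
Processed signal (x axis, linear intensity units on a log axis) of each of the 12 probes on the WT and the MeXis null array, with bars for the scanner error of the single spot. The 3 Csf1 probes read higher on MeXis null, and the widest gap among the bright receptor probes is that of Csf1r, at 95701 against 55382. Levels should be compared within a probe and not between probes.

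Csf1, the ligand, showed the largest difference of the 6 genes, except under normexp alone, described below, where that of Csf3r was larger. Its brightest probe, A_51_P195506 on NM_007778 (chr3:107544333-107544392, mm9, minus strand), read 483 ± 48.4 in WT and 1408 ± 141 in MeXis null (scanner error, 1 spot). This was 2.74-fold higher, a difference of 1.45, with 97.8% of all measured probes below it. Its difference was 1.18 with the local surface correction and passed the limit for the spread between spots either way.

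The other two Csf1 probes lie 4128 bases away on the genome and read transcript variant 3, NM_001113530, near its end. They overlap each other by 31 bases and so report on nearly the same stretch of RNA. Probe A_55_P2169669 (chr3:107548521-107548580) read 45.8 ± 5.75 in WT and 107 ± 13.2 in MeXis null, 2.20-fold higher. Probe A_55_P2017914 (chr3:107548550-107548609) read 81.1 ± 8.80 and 125 ± 15.0, a difference of 0.53 that was not called. The bright spots around these 2 probes on the array had median differences of 0.20 and -0.34. With those medians subtracted the pair came to 0.93 and 0.87, both called higher. Under normexp alone the pair was at 0.47 and 0.07, neither called. Normexp with the local correction gave 0.54, not called, and 0.72. All 3 Csf1 probes were thus above 0 in every setting tried, from 0.07 to 1.45.

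**Figure D2:**
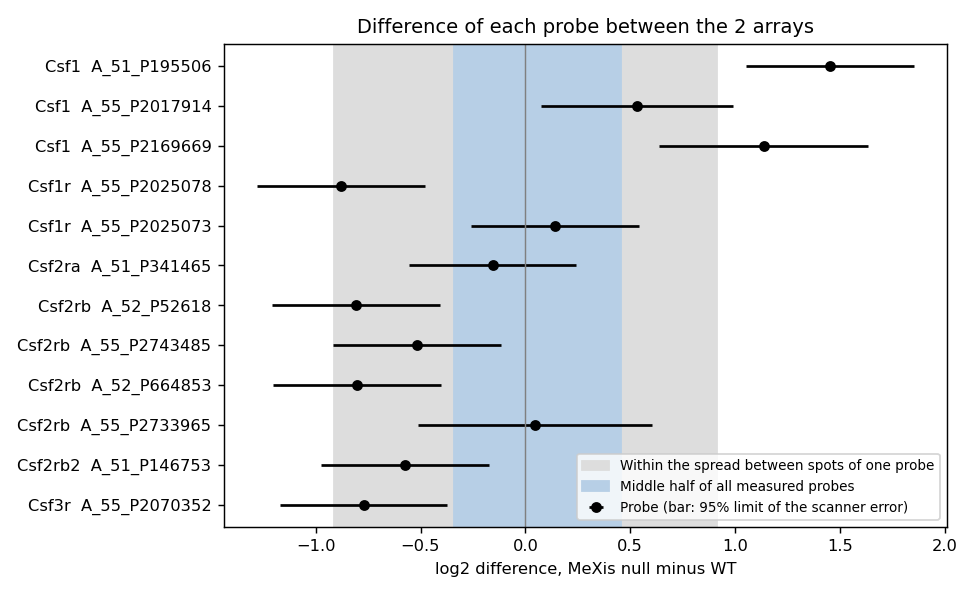
log2 difference (MeXis null minus WT, x axis) of the 12 probes, with bars for the 95% limit of the scanner error. The grey band is the 0.91 limit for spots of one probe and the blue band is the interquartile range of all measured probes, from -0.34 to 0.46: 2 Csf1 probes lie outside the grey band, and 6 receptor probes lie left of the blue one.

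Csf1r, the receptor for CSF1 and a surface marker of the macrophage lineage, gave different answers from its 2 probes. Probe A_55_P2025078, near the end of NM_001037859 (from base 3806 of the transcript; chr18:61290725-61290784, mm9), was the brightest of the 12. It read 95701 ± 9570 in WT and 55382 ± 5538 in MeXis null, 1.84-fold lower. Probe A_55_P2025073, from base 1841 of the same transcript (chr18:61278661-61278720), read 1024 ± 102 and 1202 ± 120, a difference of 0.14. The bright probe was called lower at -0.88, short of the 0.91 limit, which it passed under quantile, loess, median, all-probe and spike-in scaling. The dim probe was not called. The pair was thus 1.02 apart in the main scaling. Among 3562 genes with 2 measured probes the median gap was 0.56, 21.8% had a gap at least as wide, and in 46.8% the probes had opposite signs.

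The difference of the bright Csf1r probe depended on the scanner software's correction for uneven signal. Before that correction its spot gave a mean signal of 75288 in WT and 72091 in MeXis null, a log2 ratio of -0.06. The software divided the WT spot by a surface factor of 0.786 and the MeXis null spot by 1.30, which brought the log2 ratio to -0.79. From the signal before correction, with another background method (normexp), the probe was at -0.14. The 100 bright spots around it then had a median difference of 0.57, and with this subtracted the probe was at -0.72. After the local surface correction of the processed signal it was at -0.82, beyond the 0.64 limit. With the 30 nearest spots in place of 100 it was at -0.58, just short of the call. The versions with the software's or the local correction thus put the bright probe between -1.03 and -0.58, and normexp alone put it near 0. The dim Csf1r probe stayed between 0.01 and 0.26 in all settings.

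**Figure D3:**
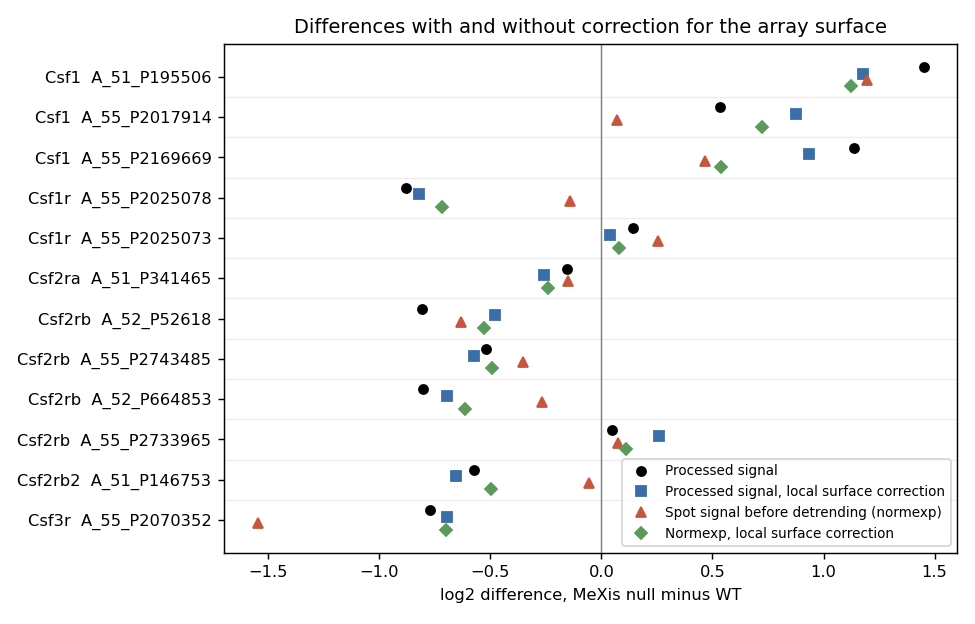
log2 difference (MeXis null minus WT, x axis) of each probe from the processed signal, from the spot signal before the software's surface correction (normexp), and from each after the local surface correction. Normexp alone puts Csf1r at -0.14, Csf2rb2 at -0.05 and Csf3r at -1.55, and with the local correction they come to -0.72, -0.50 and -0.70.

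Csf2ra, the ligand-binding alpha chain of the GM-CSF receptor, read nearly the same on both arrays. Its single probe, A_51_P341465 on NM_009970 (chr19:61300336-61300395, mm9, minus strand), gave 59706 ± 5971 in WT and 57069 ± 5707 in MeXis null. The difference of -0.16 was inside its scanner limit of 0.40, and it ranged from -0.31 to -0.15 over the settings.

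Csf2rb, the signalling beta chain, read lower on MeXis null with its 3 probes to NM_007780. These lie at 3 places along the transcript. The first, from base 1625, covers a splice junction, since its 60 bases span 263 on the genome (chr15:78176856-78177118). The second lies from base 2783 (chr15:78179450-78179509). Both were compared only with the probe of the close relative Csf2rb2, which reads from base 4491 of its own transcript. Whether they match Csf2rb2 RNA elsewhere was not tested. Their sequences are:
A_52_P664853: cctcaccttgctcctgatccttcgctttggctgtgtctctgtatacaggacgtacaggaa
A_55_P2743485: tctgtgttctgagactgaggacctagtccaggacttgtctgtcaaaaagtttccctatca

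The junction probe read 1312 ± 131 in WT and 802 ± 80.6 in MeXis null, 1.74-fold lower and called. The second read 6665 ± 666 and 4958 ± 496, a difference of -0.52 that was not called. The third, A_52_P52618, from base 4501 (chr15:78181168-78181227), read 63124 ± 6312 and 38441 ± 3844, 1.75-fold lower and called. All 3 leaned the same way by similar amounts. With the local surface correction they were at -0.70, -0.58 and -0.48, and only the junction probe lay beyond the limit of 0.64. With the 30 nearest spots the junction probe was at -0.62, short of that setting's limit of 0.65. None of the 3 reached 0 in any setting, where the nearest was -0.27 for the junction probe under normexp alone.

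The last Csf2rb probe, A_55_P2733965, was designed to AK133420, a cDNA cloned from testis, and lies further along chromosome 15 (chr15:78184049-78184108). It read 49.2 ± 6.31 in WT and 54.2 ± 8.15 in MeXis null, among the dimmest of the 12. Its difference of 0.05 was inside its scanner limit and turned to between -0.18 and 0.38 over the settings, so this probe gave no direction.

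Csf2rb2, the interleukin-3 beta chain, has 1 probe, A_51_P146753 on NM_007781 (chr15:78113126-78113185, mm9, minus strand). It read 62463 ± 6246 in WT and 44641 ± 4464 in MeXis null, 1.49-fold lower, which fell just short of the call. The local surface correction gave -0.66, past 1.5-fold and past 0.64, and with the 30 nearest spots -0.62, past 1.5-fold and short of the limit of 0.65. As with Csf1r, normexp alone brought it near 0, at -0.05, where the surrounding spots had a median of 0.44.

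The probes of the 2 beta chains that read brightest are alike in sequence. Over 31 aligned bases the third Csf2rb probe and the Csf2rb2 probe differ at 3, which are A40G, C44T and C54A, with positions counted from the 5′ end of the Csf2rb probe and its base given first. The last 30 of the aligned bases are shown with the differing bases in capitals:
Csf2rb: gcagatcaaAtgtCccttggtctCtgttca
Csf2rb2: gcagatcaaGtgtTccttggtctAtgttca

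The longest identical run between them is 10 bases. Whether RNA of either gene binds the other's probe was not tested. The differences of the aligned probes were -0.81 and -0.58, and those of the junction probe and the second Csf2rb probe -0.80 and -0.52. Those 2 probes were compared only with the Csf2rb2 probe, so whether they match other Csf2rb2 RNA was not tested.

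Csf3r, the G-CSF receptor, was called lower, but its only probe is not specific by sequence. Probe A_55_P2070352 on NM_007782 (chr4:125721478-125721537, mm9) read 18755 ± 1875 in WT and 11696 ± 1170 in MeXis null, 1.71-fold lower. It was at -0.70 with the local surface correction and at -1.55 under normexp alone, where the spots around it had a median of -0.85. The second part of the probe has the sequence of B1, an abundant family of short interspersed repeats present in the transcripts of many mouse genes. Its last 30 bases are shown, with capitals for the 13-base word shared with the most probes of other genes:
Csf3r: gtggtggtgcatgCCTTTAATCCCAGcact

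The word CCTTTAATCCCAG occurs in 11 further probes of the array, all assigned to other genes, and on either strand in 49 of 32851 RefSeq promoter windows of 300 bases (GRCm38.p6), or 0.149%. All 30 bases shown recur in the probe for the unnamed transcript TC1653005, which had signals of 31215 and 24602 in WT and MeXis null. The probe for Slc10a1, a bile acid transporter of liver cells, shares 18 bases and gave 78638 and 102006. Of the 9 such probes measured on both arrays, 5 were called lower and none higher, and 7 lay below 0, from Heatr3 at -1.26 to Slc10a1 at 0.28. This count depended on the word length, which was set after values had been seen: with a 14-base word 6 further probes matched, 4 were measured and 1 was lower. None of the other 11 member probes shared a run of 20 bases with the probe of another gene. What share of the Csf3r signal came from Csf3r itself was not tested.

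Most listed neutrophil genes were not well above background on both arrays, and the part of neutrophils in the Csf3r result was not tested. Of 10 listed markers, neither array had Ly6g, S100a9, Mpo, Camp or Retnlg well above background, and Cxcr2 was so on WT only. Measured on both were Elane (0.19), Mmp8 (0.13), S100a8 (-0.46) and Ltf (-0.64), of which Ltf was called lower. With the local surface correction Ltf was at -0.43 and not called, and S100a8 was at -0.67 and called lower. The summed unscaled signal of the 10 was 1692 in WT and 1785 in MeXis null, of which Elane alone gave 803 and 977.

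The remaining ligands and related receptors, all listed by name, were mostly dim. Il34, the other ligand of CSF1R, read 50.1 in WT and 221 in MeXis null, 4.15-fold higher, with both of its probes above 0 (1.13 and 2.05) and a local value of 1.70. Both ligands of CSF1R were therefore higher on the MeXis null array. Neither array had a signal well above background for Csf2, Il3 or Il5, the genes of GM-CSF, interleukin-3 and interleukin-5. Csf3, the gene of G-CSF, read 38.5 in WT and 29.0 in MeXis null, well above background on WT only. After scaling the MeXis null reading was 1.41-fold lower, short of the 1.5-fold threshold. Both readings were near the lowest signal well above background on MeXis null, 27.3, and the ratio makes no allowance for error. The receptor tyrosine kinase ligands Kitl (0.32) and Flt3l (-0.01) were not called, and each had a probe of opposite sign, at -0.90 and 0.60.

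Il3ra, the alpha chain that pairs with both beta chains, differed by -0.31 (-0.54 locally corrected) and was not called. Its probes disagreed in sign, with the other at 0.15. Pdgfra, a growth factor receptor of connective tissue related to CSF1R, was 2.12-fold higher, and under normexp no gene of its list was called. Kit, Flt3 and Pdgfrb were not well above background on WT or MeXis null, and Il5ra was well above background on WT alone, with no fold given.

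Genes that carry or limit the signal showed no common direction. Outside the 6 genes, 82 of 98 listed pathway genes were measured on both arrays, of which 12 were called higher and 13 lower, and the median difference was -0.01. Among all 15479 genes measured, the same rule called 18.2% higher and 14.3% lower, around a median of 0.04. Of 29 measured signal transducers 2 were higher and 4 lower, but 1 and 4 with the local surface correction, 5 and 7 under normexp, and 0 and 4 after quantile scaling. The lowest were the kinase Syk (-1.35), the Ras exchange factor Sos1 (-0.80) and the kinase Tyk2 (-0.68, but 0.07 after the local surface correction), and the highest were Akt1 (0.64), Src (0.59), both not called after that correction (0.47 and 0.50), and the ERK kinase Mapk3 (0.56, not called). Jak2, the kinase bound to the beta chain, was also called lower (-0.62), and its targets Stat5a (-0.48) and Stat5b (0.51) were not called. Jak2, Stat5a and Stat5b were named after their values were seen.

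Among 18 measured negative regulators and receptor-shedding enzymes 3 were higher and 3 lower, against 1 and 3 with the local surface correction and 5 and 3 under normexp. Adam17, the protease that sheds CSF1R and CSF1 from the cell surface, was 1.70-fold higher, a difference of 0.76 that came to 0.58 and was not called with that correction. The adaptor Sla (0.76, and 0.72 locally corrected) and the phosphatase Dusp1 (0.68, and 0.04 locally corrected) were the other higher ones. The lowest were the ubiquitin ligase Cblb (-1.12, and -0.13 locally corrected), the protease Adam10 (-0.77) and the phosphatase Ptpn11 (-0.72). Probes of Adam17 and Cblb disagreed in sign, as did those of Syk, Akt1, Stat5a and, of the genes named next, Bcl2l1.

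Transcription factors of the lineage spread most widely. Of 14 measured, 2 were higher and 4 lower, with 1 and 4 after the local surface correction and 2 and 2 under normexp. Irf8, which directs monocyte and macrophage development, was 3.80-fold lower, a difference of -1.93 that came to -1.21 locally corrected, and Ets1 was 1.85-fold lower. Cebpb was 3.15-fold higher, Ets2 was also higher (0.59, but 0.54 and not called locally corrected), and Tfec (0.51) was not called. Spi1, the gene of PU.1 and a direct activator of Csf1r and Csf2ra, differed by 0.08 and was named after its value was seen. Of 16 measured genes that respond to CSF signals, 3 were higher (Id1 3.46-fold, the cyclin Ccnd1 2.47-fold and the chemokine Ccl2 2.39-fold) and 2 lower (Irf4 at -1.33 and the survival gene Bcl2l1 at -0.63). Mcl1, the next lowest, was at -0.49. The counts were 4 and 3 with the local surface correction and 4 and 1 under normexp.

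**Figure D4:**
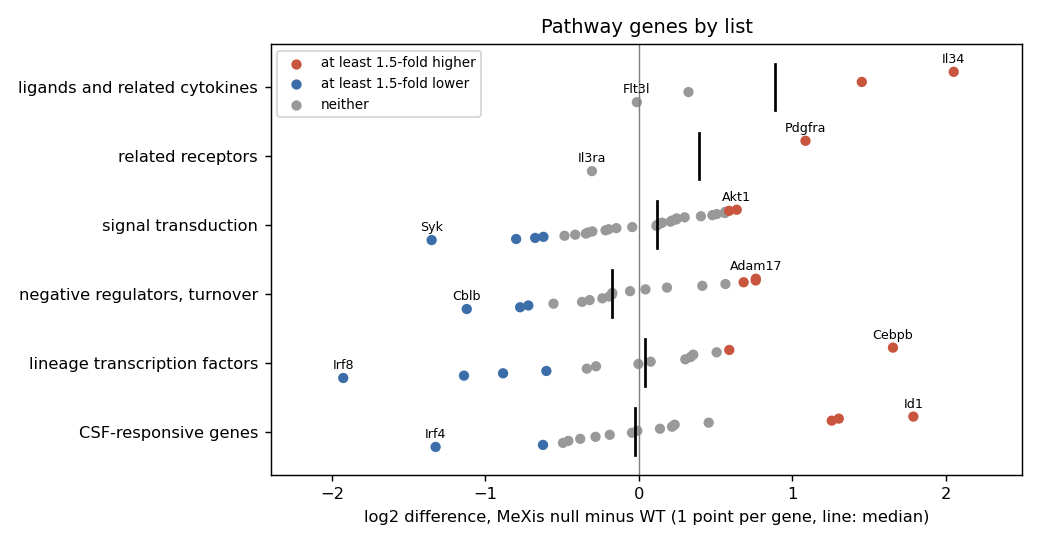
log2 difference (MeXis null minus WT, x axis) of each measured pathway gene, 1 point per gene read from its brightest probe, coloured by call, with a line for the median of each list. Il34 and Csf1 stand at the right of the ligands, and the medians of the 4 larger lists lie between -0.17 and 0.12.

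Markers of other cells differed between the pools beside these results. Of the fibroblast markers, 5 of 7 measured were called higher and 0 lower (summed signal 7499 in WT and 13442 in MeXis null, from Col3a1 at -0.15 to Fbn1 at 1.83), and the same count held with the local surface correction. The remaining fibroblast marker, Lum, went the other way, at 130.5 in WT and 40.3 in MeXis null, well above background on WT only. For mesothelial markers it was 4 of 7 higher and 0 lower (856 and 2070, from Krt8 at 0.27 to Wt1 at 1.60). With the local surface correction 3 mesothelial markers were higher: Upk3b (0.58) and Krt19 (0.54) were no longer called, and Msln (0.84) was. Fibroblasts and mesothelial cells are known sources of CSF1, and the part of these cells in the Csf1 and Il34 differences was not tested. Of 10 macrophage markers 9 were measured, with 3 higher and 1 lower, from Mertk (-1.96) to Lyz2 (1.23), and Timd4 was not well above background. Their summed signal also rose, from 207072 in WT to 395857 in MeXis null. Of this Cd68 gave 115942 and 196155, and Lyz2 71554 and 179211. With the local surface correction 1 was higher and 1 lower, since Lyz2 (0.52) and Cd68 (0.36) lost their calls, Mertk came to -1.16, and the list's median turned from 0.41 to -0.09. Probes of Cd68 also disagreed in sign. B cell markers had 4 of 5 lower, from Cd79b (-1.71) to Cd22 (-0.15), and the monocyte and dendritic list 2 of 3 lower, from Plac8 (-1.51) to Itgax (0.45). The summed signal of the monocyte and dendritic list was 27677 in WT and 39847 in MeXis null, of which Itgax gave 27104 and 39521. The T and NK cell list ran from Cd2 (-1.28) to Prf1 (0.59).

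The eosinophil list read lower in MeXis null, with a summed signal of 4319 in WT and 1647 in MeXis null. Siglecf (2430 in WT and 1538 in MeXis null, a difference of -0.75, called lower) was its only gene measured on both arrays. Ear2 read 1475 in WT and 34.3 in MeXis null, and Ear1 376 and 28.6, each well above background on WT only. Il5ra was also so on WT only, but read nearly the same, 24.3 in WT and 21.2 in MeXis null. The lowest signal well above background was 12.1 on WT and 27.3 on MeXis null. Epx, Prg2 and Ccr3 were well above background on neither array. Nearly all of the list's signal thus came from Siglecf, Ear2 and Ear1, and whether eosinophils were its source was not tested. Of the mast cell markers Cma1 read 60.6 and 8.24 and Cpa3 37.1 and 6.32, likewise above background on WT only. Hdc (-0.32, and -0.63 and called lower locally corrected) and Tpsb2 (0.28) were measured on both, and Mcpt4, Kit, Fcer1a and Ms4a2 on neither. The mast cell list's summed signal was 433 in WT and 428 in MeXis null, of which Tpsb2 alone gave 252 and 326. Eosinophils and mast cells are known to carry the beta chains, and the part of these cells in the Csf2rb and Csf2rb2 differences was not tested.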

How the data were processed

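The authors deposited scanner files of linear spot intensity per array, made with Agilent Feature Extraction 11.5.1.1 with coordinates on mm9. The processed value is a spot's background-subtracted intensity over a fitted surface factor, a ratio listed for each spot, per the file headers. The authors' value table holds these same intensity values for 62976 features of each array. The number of its columns without a sample was 0. RNA was pooled before hybridisation, so 1 array per group allows no test.

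Control spots and 500 spots marked as outliers were left out, and 0 were saturated. Levels are the log2 processed signal less the 75th percentile of probes well above background on both arrays (48.0% of non-control spots on WT, 44.3% on MeXis null). Scanner limits are 1.96 errors. Symbols came from a RefSeq table of GRCm38.p6: 32989 probes matched by accession, 10228 by symbol, 519 by synonym, and 12869 kept the file's name. A listed gene was read from its brightest probe. The main scaling and difference were tested on simulated data without a surface trend, by the mean estimate against the known change. The call was run on the same data, but no limit was set on its rate of wrong calls. The local surface correction, normexp and the sequence steps were not tested in this way. The work used Python 3.11.15, R 4.3.3 and limma 3.58.1.

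The 6 genes and the lists were chosen with earlier results of these data known. Named were every member probe, the ligands and related receptors, the 3 highest and 3 lowest genes of the other pathway lists, and the extremes of each marker list. One gene that this rule names is not reported here. Genes of a marker list that were not well above background on both arrays are named where they bear on a member. Normexp with the local surface correction was added after seeing the data.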

Additional observations from a re-analysis of the deposited data

How the results depend on the processing

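Each probe was recomputed in 11 other settings: normexp (offset 50), quantile, loess, median, all-probe and spike-in scaling, local surface correction with 100 or 30 spots, that with 100 spots together with normexp, the series matrix, and outlier spots kept. Of the resulting values 125 moved by less than the SD of 0.47 between spots, 7 moved by more, and no called probe changed sign. Many of the 125 could not have moved further. The series matrix holds the same intensities and no member spot was an outlier, so those settings gave the main values again. Median, all-probe and spike-in scaling shift every probe alike, by -0.08, -0.06 and -0.11, which cannot reach 0.47. The count of 125 is therefore no measure of stability. Normexp alone left 1 probe higher and 2 lower, and a 2-fold threshold left 2 higher and 0 lower. The lower count otherwise ran from 3 to 6. The local surface correction with 100 spots shifted the median probe by -0.11, and spike-in scaling shifted all probes by -0.11 and turned the split of all calls to 15.0% higher and 18.1% lower. No paired analysis was possible because each genotype had 1 array. Dim signals limit the Csf1 variant 3 probes, Il34, and the AK133420 probe, since the lowest signal well above background was 12.1 on WT and 27.3 on MeXis null.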
